A study of Mus musculus with 4 samples.

Results

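The genes described here are 31 p53 targets and regulators, chosen by name, out of 35905 mouse genes that the transcript tables could be matched to. All 31 had at least 1 transcript in the tables, and all 31 passed the filter on low counts, together with 13718 genes in all. They were sorted by role into 5 arms: p53 and its regulators (4 genes), cell cycle arrest and growth control (6), apoptosis (12), DNA repair (5), and metabolism with autophagy (4). Poly-A RNA was sequenced from cells of LLC (Lewis lung carcinoma), an established lung tumour line from a C57BL/6 mouse, grown for 4 weeks as subcutaneous flank tumours in C57BL/6 hosts and then sorted as TdTomato-positive, CD45-negative cells. Both groups of hosts carried the floxed allele Padi4fl/fl. The WT hosts were Mrp8Cre-, and the PAD4-DN hosts were Mrp8Cre+, a driver of Cre that is active mainly in neutrophils and their precursors, so the floxed gene was in the hosts and not in the implanted line. Each group had 2 libraries, with totals of 23414984 and 25327974 estimated counts for WT and 20036322 and 24142484 for PAD4-DN. Host age is not given in the sources used here. Nothing there says that the replicates came from separate animals, so the p-values reflect the spread of these libraries alone, which may be technical.

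p53, encoded by Trp53 in the mouse, is a transcription factor that is held at low levels by the ubiquitin ligase MDM2 and freed from it by DNA damage, oncogene activity and other stress. It then switches on genes that halt the cell cycle, start mitochondrial apoptosis, repair DNA and adjust metabolism, and also Mdm2 itself, which closes a feedback loop. Several of its targets, among them Sesn2, Pmaip1, Bbc3, Tnfrsf10b and Gadd45a, are also induced by the integrated stress response through ATF4 or CHOP, and Btg2, Plk2 and Gadd45a respond to growth factor and stress signals as well.

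p53 binds DNA as a tetramer on a pair of decamers. Each decamer has 3 purines, a C, 2 letters that are A or T, a G and 3 pyrimidines, and it reads by the same rule on both strands. RefSeq promoter windows on build GRCm38.p6, running from 250 bases before to 50 bases after an annotated start, were at hand for 24 of the 31 genes. At least 1 complete decamer was present in a window of 11 of these 24 genes (45.8%), against 2582 of 27025 genes of the whole table (9.55%). A pair of decamers at most 1 base apart, matching at least 17 of 20 letters, was present for 6 of the 24 genes (25.0%) and for 332 of all genes (1.23%). The rule for pairs was set after the windows had been searched for single decamers. A match is a description of the letters in the window and does not show that p53 binds there. The genes were listed as p53 targets and regulators, so their higher shares than over all genes are not independent evidence. The 6 pairs are shown because they are the longest matches to the p53 sequence in the windows of these genes. Capitals mark the pair, lower case its flanks, and each line reads 5′ to 3′ on the gene's strand.
Cdkn1a: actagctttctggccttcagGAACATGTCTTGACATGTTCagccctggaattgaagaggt
Bax: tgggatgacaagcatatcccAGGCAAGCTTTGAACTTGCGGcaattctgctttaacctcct
Trp53: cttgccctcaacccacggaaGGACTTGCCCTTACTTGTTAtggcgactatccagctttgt
Bbc3: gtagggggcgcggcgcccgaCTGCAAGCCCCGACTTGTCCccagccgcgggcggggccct
Tigar: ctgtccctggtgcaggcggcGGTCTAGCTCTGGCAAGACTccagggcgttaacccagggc
Aen: agccGGGCTTGTCCGGGCAAGGAGcttc

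The Cdkn1a pair matched 19 of 20 letters and lay at positions −51 to −32, within a printed stretch at chr17:29090908-29090967 on the plus strand, counted from the more upstream of its annotated starts. The Bax pair matched 18 letters and had 1 base between its decamers, at positions −201 to −181, within a printed stretch at chr7:45467059-45467119 on the minus strand. The other 4 pairs matched 17 letters each. Their printed stretches, flanks included, were at chr11:69580264-69580323 on the plus strand for Trp53, at chr7:16309466-16309525 on the plus strand for Bbc3, at chr6:127109726-127109785 on the minus strand for Tigar and at chr7:78895933-78895960 on the plus strand for Aen. The Aen pair lay at positions −121 to −102 from the more downstream of its 2 annotated starts and at positions 11 to 30 from the more upstream one. Complete decamers without such a pair were found for Mdm2, Ccng1, Ppm1d, Gadd45a, Ei24, Polk and Sesn1.

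No p53 gene passed edgeR's quasi-likelihood test of PAD4-DN against WT at a false discovery rate of 0.05, with 0 of the 31 genes and 0 of all 13718 genes past it (a background of 0.0%). At an unadjusted p under 0.05, edgeR's test gave 7 of the 31 genes, against 2.65% of all genes, and all 7 had the lower level in PAD4-DN, against 1.42% of all genes (Bax, Aen, Sesn2, Trp53, Phlda3, Ercc5 and Pmaip1). Without WT replicate 2, which leaves 1 WT library, the median log2 fold change was −0.21 over the 31 genes and 0.02 over all genes. Pmaip1 moved from −0.70 to −0.32 in that fit. DESeq2, run without that filter on low counts, also passed 0 of the 31 genes. It had 8 of them at an unadjusted p under 0.05, against 367 of 21921 genes. On the 13718 filtered genes, a run added after the data were seen, DESeq2 had 8 of the 31 and 364 of all genes there. In CPM, counts scaled to a TMM-adjusted library of 1000000, the PAD4-DN libraries were both under the WT libraries for 15 genes, against 17.4% of all genes, and above both for 3 genes, against 15.4% of all genes. The median log2 fold change, PAD4-DN minus WT, was −0.23 over the 31 genes and 0.01 over all genes tested, and 24 of the 31 values were negative, against 48.5% of all genes. With 2 libraries against 2, an exact permutation test of a single value cannot give a two-sided p below 0.33. The genes were listed with an earlier result on p53 targets in these libraries known, so these counts describe the list and are not independent evidence of its direction.

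**Figure D1:**
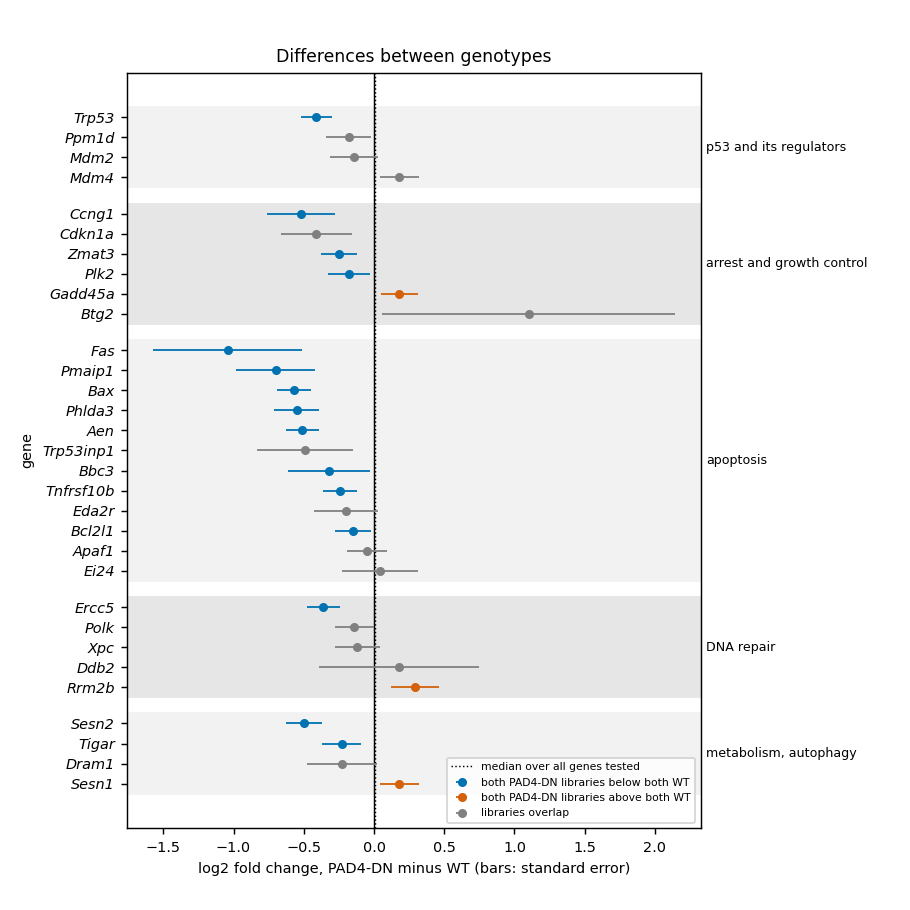
Log2 fold changes of the 31 genes, PAD4-DN minus WT (x axis), by arm, with bars for the standard error and colours for whether the 2 libraries of each group overlap. Blue points, the 15 genes with both PAD4-DN libraries below both WT libraries, include 8 of the apoptosis arm, where 11 of 12 values are negative, and the wide bar of Btg2 shows its spread between libraries.

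The scale changed the split between directions. On TPM, which divides by effective length and then scales each library to 1000000, 10 of the 31 genes were below WT in both PAD4-DN libraries, against 10.5% of all genes, and 4 were above, against 22.9% of all genes. The 10 genes below WT on TPM were also among the 15 on CPM. They were Trp53, Zmat3, Bax, Pmaip1, Tnfrsf10b, Aen, Phlda3, Ercc5, Sesn2 and Tigar. Gadd45a, Rrm2b and Sesn1 were above WT on both scales, and Polk was above on TPM only while its libraries overlapped on CPM. On log2(TPM + 1) with limma-trend the median over the 30 genes with a mean TPM of at least 1 was −0.12, against 0.06 over all genes on that scale. Of these 30 genes, 4 were at an unadjusted p under 0.05 by limma, against 388 of all 12044 genes tested on that scale.

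The 31 genes spanned a wide range of levels, with 4 at or above a mean of 100 TPM and 4 under 5 TPM, and a median of 18.4 TPM. The p21 gene Cdkn1a was the most abundant at a mean of 147 TPM, above 94.6% of the genes tested, followed by Ccng1 at 137, Trp53 at 123 and Gadd45a at 112 TPM. These leading genes did not hold a fixed order. Cdkn1a was the highest of the 4 in WT replicate 1 and PAD4-DN replicate 2, Ccng1 in WT replicate 2 and Gadd45a in PAD4-DN replicate 1. Next came Bax at 81.9 and Mdm2 at 77.1 TPM, and at the low end were Dram1 at 4.29, Bbc3 at 4.25, Fas at 1.5 and Ddb2 at 0.81 TPM. Fas and Ddb2 had fewer than 50 counts in at least 1 library, so their differences are the least precise in counts.

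**Figure D2:**
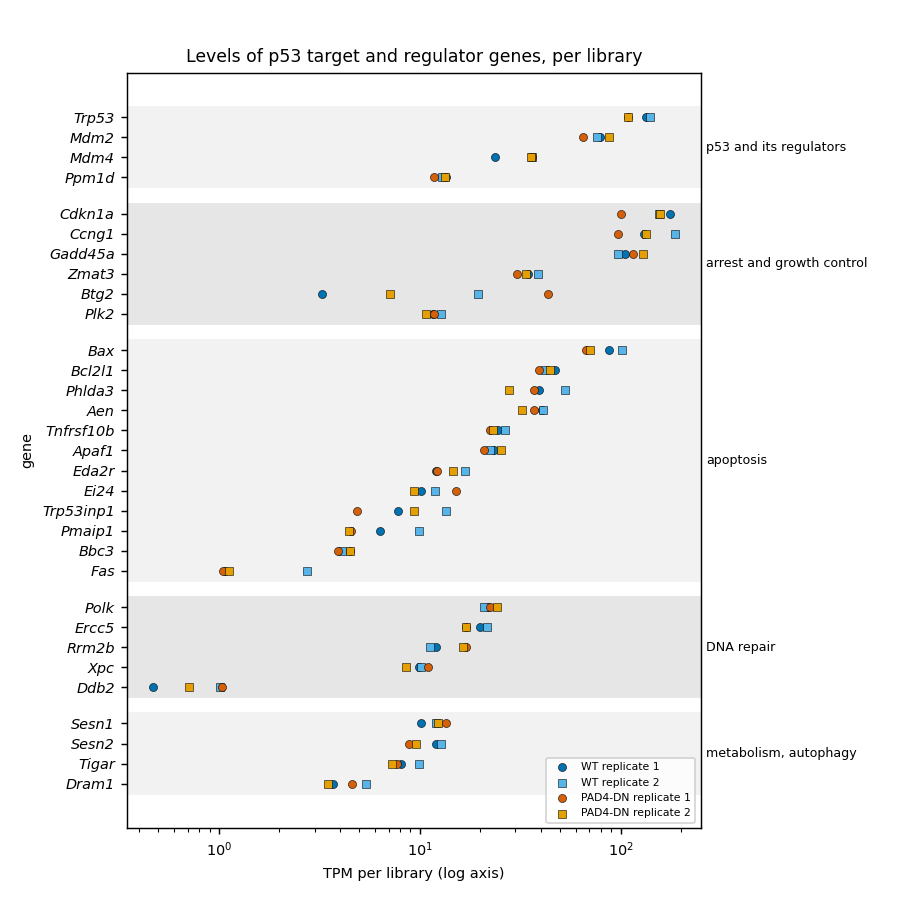
TPM of each of the 31 genes (x axis, log scale) in each of the 4 libraries, by arm and ordered by mean level. Most genes hold their 4 points close together, whereas Btg2 runs from 3.27 to 43.8 TPM.

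Trp53 was lower in both PAD4-DN libraries, at 159 and 162 CPM in WT against 120 and 121 in PAD4-DN. The libraries of a group lay within 1 or 3 CPM of each other, and the groups did not overlap. The log2 fold change was −0.41 (SE 0.11, unadjusted p = 0.0121 and adjusted p = 0.988 by edgeR). On TPM the libraries stood at 134 and 141 in WT against 109 and 109 in PAD4-DN. Trp53-201, its main coding transcript, held 90.8% and 84.0% of the gene's TPM in WT and 89.1% and 91.7% in PAD4-DN. Most of the rest was assigned to Trp53-202, which had 316 and 611 estimated counts in WT against 206 and 203 in PAD4-DN.

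The 3 genes that restrain p53 had overlapping libraries. Mdm2, the ubiquitin ligase that targets p53 for degradation and is itself a p53 target, was at 124 and 104 CPM in WT against 89.4 and 117 in PAD4-DN, with a log2 fold change of −0.14 (SE 0.17, unadjusted p = 0.452 by edgeR). Both PAD4-DN libraries were below WT replicate 1, and PAD4-DN replicate 2 was above WT replicate 2. Mdm4, a relative of MDM2 that blocks the transactivation domain of p53, was at 73.7 and 91.1 CPM in WT against 90.5 and 96.4 in PAD4-DN. Ppm1d, the phosphatase WIP1 that reverses damage signalling to p53, was at 27.4 and 24.4 CPM in WT against 20.4 and 25.3 in PAD4-DN. Relative to Trp53, Mdm2 stood at 0.587 and 0.543 in WT against 0.598 and 0.808 in PAD4-DN, as ratios of TPM. PAD4-DN replicate 2 had the highest such ratio of the 4 libraries.

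Kallisto, the authors' tool, divided Mdm2 reads among 9 transcripts in proportions that differed between libraries of the same group. The coding transcript Mdm2-201 held 62.9% and 32.8% of the gene's TPM in WT and 53.2% and 46.3% in PAD4-DN. A nonsense-mediated decay transcript of Mdm2 had 2.12 and 509 estimated counts in WT against 6.48 and 193 in PAD4-DN, so the replicates numbered 2 were high in both genotypes. These shares are estimates from single-end reads and carry no test. For Mdm4 the coding transcript Mdm4-210 held 46.9% and 39.1% in WT against 40.9% and 41.9% in PAD4-DN. When TPM was summed over coding transcripts alone, Mdm4 was at 11.4 and 15.3 in WT against 18.4 and 16.5 in PAD4-DN, and its libraries no longer overlapped.

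In the arrest arm, 3 of 6 genes were below WT in both PAD4-DN libraries and 1 was above, against 17.4% and 15.4% of all genes, and none passed the test. On TPM 1 of the 6 was below and 1 above, against 10.5% and 22.9% of all genes. Cdkn1a, whose product p21 inhibits cyclin-dependent kinases, was at 203 and 164 CPM in WT against 107 and 169 in PAD4-DN, for a log2 fold change of −0.41 (SE 0.25, unadjusted p = 0.153 by edgeR). PAD4-DN replicate 1 was the low library, and PAD4-DN replicate 2 lay between the WT libraries. Without PAD4-DN replicate 1 the Cdkn1a value was −0.12, and without PAD4-DN replicate 2 it was −0.78. Ccng1, cyclin G1, was at 328 and 447 CPM in WT against 225 and 315 in PAD4-DN, with a log2 fold change of −0.52 (SE 0.24). It was −0.28 without WT replicate 2, −0.30 without PAD4-DN replicate 1 and −0.78 without PAD4-DN replicate 2. Its groups did not overlap on CPM but did on TPM, where PAD4-DN replicate 2 at 134 lay above WT replicate 1 at 131.

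Zmat3, an RNA-binding zinc finger protein that regulates splicing and messenger RNA stability, was at 194 and 208 CPM in WT against 158 and 179 in PAD4-DN. The polo-like kinase Plk2 was at 20.5 and 22.9 CPM in WT against 20.2 and 18.1 in PAD4-DN, with the nearest libraries of the 2 groups almost level. Gadd45a, which binds PCNA and stress kinases, stood in the other direction at 79.6 and 68.7 CPM in WT against 79.7 and 88.7 in PAD4-DN. Its margin between WT replicate 1 and PAD4-DN replicate 1 was 79.6 against 79.7 CPM, and with DESeq2 size factors the libraries overlapped. On that scaling 2 of the 31 genes were above WT in both PAD4-DN libraries and 15 below, against 16.1% and 16.4% of all genes.

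Btg2, an antiproliferative gene that is also an immediate early gene, varied most between libraries. It was at 6.29 and 35.8 CPM in WT against 78.0 and 12.7 in PAD4-DN. The libraries of a group differed 5.69-fold in WT and 6.12-fold in PAD4-DN, more than the groups did, and the log2 fold change of 1.10 had an SE of 1.04. Without PAD4-DN replicate 1 it was −0.73. WT replicate 2 and PAD4-DN replicate 1 were also the 2 highest libraries for the immediate early transcription factor Fos, at 114 and 540 CPM in WT against 866 and 286 in PAD4-DN. PAD4-DN replicate 1 had the highest value of the 4 libraries for 14 of 16 immediate early genes, against 3796 of all 13718 genes. None of the 16 passed, and their median log2 fold change was 0.66. The smallest p values were those of Klf6, at 325 and 440 CPM in WT against 624 and 444 in PAD4-DN, and of the phosphatase gene Dusp1, at 20.5 and 32.1 CPM against 77.4 and 25.7 CPM. The part of this in the Btg2 values was not tested.

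The apoptosis arm had 8 of 12 genes below WT in both PAD4-DN libraries and 0 above, against 17.4% and 15.4% of all genes, with a median log2 fold change of −0.41 against 0.01 over all genes. On TPM 5 of the 12 were below and 0 above, against 10.5% and 22.9% of all genes. Bax, the effector that permeabilises the outer mitochondrial membrane, was at 43.8 and 47.4 CPM in WT against 30.1 and 31.3 in PAD4-DN. The groups were separated by more than the spread within either, and the log2 fold change was −0.57 (SE 0.12, unadjusted p = 0.00473 and adjusted p = 0.988 by edgeR), the smallest p of the 31 genes and rank 20 of all genes. On TPM the Bax libraries stood at 88.0 and 102 in WT against 67.6 and 70.5 in PAD4-DN. Its main transcript, Bax-201, held between 80.9% and 86.4% of the gene's TPM in all 4 libraries.

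**Figure D3:**
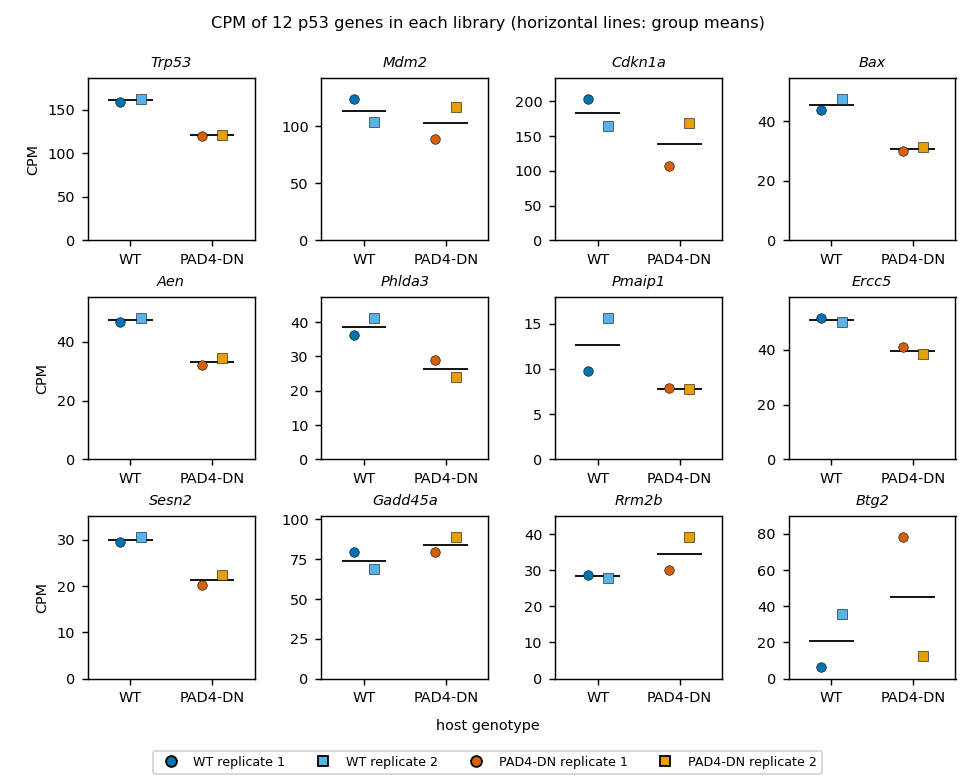
CPM (y axes, each from 0) of 12 p53 genes in the 2 WT and 2 PAD4-DN libraries, with horizontal lines at the group means. The panels include all 7 genes at an unadjusted p under 0.05 by edgeR, so they do not represent all 31. Trp53, Bax, Aen, Ercc5 and Sesn2 show tight pairs of points with a gap between groups, Mdm2 and Cdkn1a overlap, and Btg2 is highest in PAD4-DN replicate 1 at 78.0 CPM.

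Aen, an exonuclease that digests DNA during apoptosis, was at 46.7 and 48.0 CPM in WT against 32.1 and 34.4 in PAD4-DN, with a log2 fold change of −0.51 (SE 0.12, unadjusted p = 0.0071 by edgeR). On TPM the gap was narrower, at 40.6 and 41.3 in WT against 37.3 and 32.5 in PAD4-DN, a difference of −0.23 on the log2(TPM + 1) scale. A noncoding transcript of 393 bases, Aen-206, held 34.4% and 28.9% of the gene's TPM in WT and 40.5% and 36.9% in PAD4-DN, on only 36.4 to 44.0 estimated counts. Summed over coding transcripts, Aen was at 24.7 and 26.8 TPM in WT against 21.6 and 18.9 in PAD4-DN.

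Phlda3, a pleckstrin homology domain protein that restrains AKT, was at 36.2 and 41.1 CPM in WT against 28.9 and 24.0 in PAD4-DN, with a log2 fold change of −0.55 (SE 0.16, unadjusted p = 0.0144 by edgeR). Pmaip1, which encodes the BH3-only protein NOXA, was at 9.8 and 15.6 CPM in WT against 7.86 and 7.8 in PAD4-DN, for a log2 fold change of −0.70 (SE 0.28, unadjusted p = 0.0479 by edgeR). WT replicate 2 was the high library for Pmaip1, and without it the value was −0.32. Transcript Pmaip1-202 had 24.5 and 28.7 estimated counts in WT against 0.0 and 1.44 in PAD4-DN, while Pmaip1-203 had 39.8 in PAD4-DN replicate 1 and under 1 in each of the others. The main transcript, Pmaip1-201, had 199 and 364 estimated counts in WT against 121 and 185 in PAD4-DN.

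Among the death receptors, Tnfrsf10b, the mouse TRAIL receptor, was at 53.2 and 54.8 CPM in WT against 44.8 and 46.9 in PAD4-DN, a narrow spread within each group, with a log2 fold change of −0.24 (SE 0.12, unadjusted p = 0.0979 by edgeR). Fas was at 1.1 and 2.14 CPM in WT against 0.732 and 0.838 in PAD4-DN, on 15 to 54 counts per library. The ectodysplasin A2 receptor gene Eda2r had overlapping libraries, at 27.3 and 40.1 CPM in WT against 25.7 and 32.9 in PAD4-DN. Bbc3, which encodes the BH3-only protein PUMA, was at 4.57 and 4.48 CPM in WT against 3.27 and 3.98 in PAD4-DN. On TPM the Bbc3 libraries overlapped, and the retained-intron transcript Bbc3-203 held 19.9% and 0.0% of its TPM in WT and 42.9% and 29.2% in PAD4-DN. These shares rested on only 0.0 to 15.7 estimated counts per library. Summed over coding transcripts, Bbc3 was at 3.6 and 4.09 TPM in WT against 2.24 and 3.2 in PAD4-DN, without overlap.

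Bcl2l1, the source of the survival protein BCL-XL, was at 64.2 and 55.6 CPM in WT against 53.2 and 54.8 in PAD4-DN. The ratio of Bax to Bcl2l1 in TPM was 1.87 and 2.4 in WT against 1.72 and 1.58 in PAD4-DN, so both PAD4-DN libraries were below both WT libraries, by less than the gap between the WT libraries. Trp53inp1, a stress protein that promotes p53 phosphorylation and autophagy, varied within groups, at 27.1 and 42.9 CPM in WT against 17.8 and 32.0 in PAD4-DN. The apoptosome scaffold Apaf1 was nearly level, at 101 and 94.6 CPM in WT against 84.1 and 104 in PAD4-DN, for a log2 fold change of −0.05 (SE 0.14). Ei24, an endoplasmic reticulum protein, was at 14.3 and 15.6 CPM in WT against 19.2 and 11.7 in PAD4-DN, where the PAD4-DN libraries were the highest and the lowest of the 4.

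The DNA repair arm had 1 of 5 genes below WT in both PAD4-DN libraries and 1 above, near the shares of 17.4% and 15.4% over all genes. Its median log2 fold change was −0.12, and 0.05 without PAD4-DN replicate 2. Ercc5, the nuclease XPG of nucleotide excision repair, was at 51.4 and 50.2 CPM in WT against 40.8 and 38.4 in PAD4-DN, for a log2 fold change of −0.36 (SE 0.12, unadjusted p = 0.0269 by edgeR). Rrm2b, the p53-inducible small subunit of ribonucleotide reductase, was at 28.8 and 27.9 CPM in WT against 30.2 and 39.1 in PAD4-DN, for a log2 fold change of 0.29 (SE 0.17). PAD4-DN replicate 2 was the high library for Rrm2b on CPM, and the value was 0.09 without it and 0.46 without PAD4-DN replicate 1, while on TPM the libraries stood at 12.1 and 11.2 in WT against 17.1 and 16.4 in PAD4-DN.

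The other 3 repair genes had overlapping libraries on CPM. The translesion polymerase gene Polk was the most abundant of the arm at a mean of 22.4 TPM, and it was at 53.5 and 49.9 CPM in WT against 43.0 and 50.6 in PAD4-DN, for a log2 fold change of −0.14 (SE 0.14). The damage sensor gene Xpc was at 26.0 and 25.5 CPM in WT against 26.5 and 20.9 in PAD4-DN. Ddb2, which recognises ultraviolet lesions, was at 0.571 and 1.07 CPM in WT against 1.12 and 0.755 in PAD4-DN, on 13 to 27 counts per library, with a log2 fold change of 0.18 (SE 0.57).

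In the metabolism arm the 2 sestrins, stress proteins that restrain mTORC1, stood in opposite directions. Sesn2 was at 29.6 and 30.5 CPM in WT against 20.2 and 22.3 in PAD4-DN, for a log2 fold change of −0.50 (SE 0.13, unadjusted p = 0.0108 by edgeR). Sesn1 was at 20.2 and 22.8 CPM in WT against 24.9 and 23.6 in PAD4-DN, for a log2 fold change of 0.18 (SE 0.14, unadjusted p = 0.261 by edgeR). Neither pair of groups overlapped, and the difference between the genes was not tested. Tigar, a fructose bisphosphatase that lowers glycolytic flux, was at 20.7 and 21.5 CPM in WT against 18.7 and 17.1 in PAD4-DN. The lysosomal autophagy gene Dram1 was at 6.59 and 8.69 CPM in WT against 6.68 and 6.37 in PAD4-DN, with overlapping libraries.

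The libraries did not contribute evenly to these counts. PAD4-DN replicate 1 was the lowest of the 4 libraries for 17 of the 31 genes and PAD4-DN replicate 2 for 8, while WT replicate 2 was the highest for 15 and WT replicate 1 for 7. Over all 13718 genes, PAD4-DN replicates 1 and 2 were the lowest for 3625 and 3955. WT replicates 2 and 1 were the highest for 3054 and 3017 of them. As the median deviation from the mean of the libraries over the 31 genes on log2(CPM + 0.5), WT replicates 1 and 2 were at 0.08 and 0.16 and PAD4-DN replicates 1 and 2 at −0.19 and −0.08. The log2 fold change of 22 of the 31 genes moved by over 1.5 times or changed sign when 1 of the libraries was left out. Without PAD4-DN replicate 1 the median log2 fold change was −0.20, and without PAD4-DN replicate 2 it was −0.31. PAD4-DN replicate 1 also had the highest value for 7 of 8 macrophage markers and 5 of 6 erythroid and platelet markers tested, against 3796 of all 13718 genes. Summed over the 8 listed, macrophage markers were at 55.0 and 58.7 TPM in WT against 112 and 22.7 in PAD4-DN, with 0 of the 8 at 0 in all libraries. Erythroid and platelet markers summed to 86.9 and 13.8 TPM in WT against 298 and 11.6 in PAD4-DN, and fibroblast markers to 4342 and 4878 TPM against 6886 and 4388 TPM, most of it Col3a1. Some single fibroblast markers differed far more between libraries of a group, with Col1a1 at 16.0 and 531 CPM in WT against 652 and 16.9 in PAD4-DN. The values for Col1a2 were 0.879 and 404 CPM (WT) against 467 and 3.94 (PAD4-DN). Those for Postn were 0.22 and 129 CPM (WT) against 62.8 and 1.72 (PAD4-DN). WT replicate 2 and PAD4-DN replicate 1 were the high libraries for these 3, and for Col3a1 and Pdgfra by smaller margins. Lum, Dcn and Dpt did not follow this order. Lum was at 425 and 442 CPM in WT against 343 and 681 in PAD4-DN, and Dcn at 981 and 770 CPM against 981 and 1045 CPM. For Dpt the values were 135 and 154 CPM in WT against 255 and 180 in PAD4-DN. The part of these cell type markers in the p53 values was not tested, and in bulk RNA fewer cells of a type and less RNA per cell cannot be told apart.

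**Figure D4:**
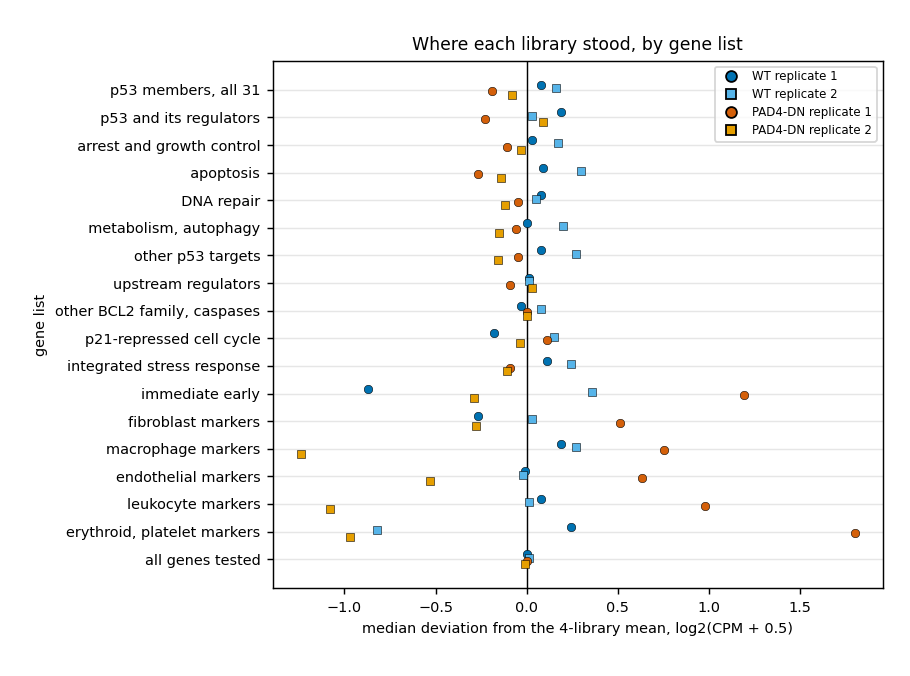
Median deviation of each library from the mean of the 4 libraries (x axis, log2 scale) for the 31 p53 genes, their arms, other pathway lists and cell type markers. The p53 points lie within −0.27 and 0.30, with PAD4-DN on the low side for all 31 genes together, while immediate early genes reach 1.19 and erythroid and platelet markers 1.80 in PAD4-DN replicate 1.

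The 8 epithelial and tumour markers listed spanned a wide range of levels in the sorted cells. Vim, the intermediate filament vimentin, was at 3198 to 3809 CPM, and the epithelial keratins Krt8 and Krt18 were at 158 to 217 CPM. The keratin gene Krt19 was at 1.19 and 1.35 CPM in WT against 0.732 and 0.377 in PAD4-DN. The adhesion genes Epcam and Cdh1 reached at most 0.342 CPM, Nkx2-1 at most 0.132 CPM, and the alveolar surfactant gene Sftpc had 0 counts. Ptprc, which encodes the sorting antigen CD45, was at 2.2 and 1.71 CPM in WT against 5.42 and 0.713 in PAD4-DN. The fibroblast markers Col3a1, Dcn and Pdgfra were abundant, at 6564 to 11641, 770 to 1045 and 247 to 340 CPM. Col1a1, Col1a2 and Postn were far lower in WT replicate 1 and PAD4-DN replicate 2. Whether the Vim, keratin, Col3a1, Dcn and Pdgfra transcripts came from the tumour line or from other cells was not tested.

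Upstream of p53, 15 of 18 listed genes were tested and 0 passed, with 3 below WT in both PAD4-DN libraries and 1 above, near the shares of 17.4% and 15.4% over all genes, and a median log2 fold change of 0.03. On TPM 0 were below and 1 above, against 10.5% and 22.9% of all genes. The deubiquitinase gene Usp10 was at 82.5 and 79.0 CPM in WT against 68.9 and 66.3 in PAD4-DN, and the acetyltransferase gene Crebbp at 86.7 and 74.0 CPM against 99.4 and 87.4 CPM. Cop1, a ubiquitin ligase for p53, was the most abundant of these at a mean of 118 TPM, and its libraries overlapped. The damage kinase gene Atm overlapped as well, at 66.0 and 90.1 CPM in WT against 66.2 and 75.2 in PAD4-DN. Cdkn2a, the locus of the MDM2 inhibitor ARF, had 0 counts in all 4 libraries, which allows at most 3 counts, or 0.119 to 0.146 CPM, for counting error only. The p53 relative Trp73 also had 0 counts, and Trp63 at most 0.0879 CPM. Atm, Cdkn2a, Trp73 and Trp63 were singled out after their values were seen.

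Of 26 other p53 targets listed, 24 had transcripts and 20 were tested. None passed by edgeR, 2 had an unadjusted p under 0.05, both lower in PAD4-DN, against 1.42% of all genes, and 7 were below WT in both PAD4-DN libraries with 0 above, against 17.4% and 15.4% of all genes. Their median log2 fold change was −0.30, with 16 of 20 negative. Dglucy, a mitochondrial D-glutamate cyclase, was at 31.4 and 40.8 CPM in WT against 19.6 and 26.5 in PAD4-DN, for a log2 fold change of −0.65 (unadjusted p = 0.0253 by edgeR). The adenylate kinase gene Ak1 was at 76.4 and 85.0 CPM in WT against 55.8 and 68.4 in PAD4-DN. Rps27l, a ribosomal protein paralogue induced by p53, was at 70.4 and 81.4 CPM in WT against 65.9 and 50.4 in PAD4-DN. On TPM, 5 of the 20 genes were below WT in both PAD4-DN libraries and 2 were above, against 10.5% and 22.9% of all genes. Their median was −0.22 on log2(TPM + 1). The desmosome-linked target Perp had 0 counts in all 4 libraries and Gdf15 at most 0.168 CPM, both singled out after their values were seen.

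Genes that p21 represses through the DREAM complex had a median near that of all genes. All 18 were tested, 0 passed and 0 had an unadjusted p under 0.05 by edgeR. On CPM 1 had libraries that did not overlap, against 32.8% of all genes, and the median log2 fold change was 0.04. With TPM, 0 were below WT in both PAD4-DN libraries and 3 above, against 10.5% and 22.9% of all genes. The median on log2(TPM + 1) was 0.12, against 0.07 over all genes tested. Ccna2, cyclin A, was at 39.7 and 57.9 CPM in WT against 58.8 and 62.3 in PAD4-DN, and WT replicate 1 was the lowest library for 11 of the 18. Ccnb1 was at 25.3 and 38.2 CPM in WT against 38.2 and 36.7 in PAD4-DN. Top2a, a topoisomerase of dividing cells, was at 280 and 374 CPM in WT against 321 and 346 in PAD4-DN.

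Among 17 tested BCL2 family and caspase genes outside the 31, 0 passed, 4 were below WT in both PAD4-DN libraries and 4 were above, against 17.4% and 15.4% of all genes. On TPM 2 were below and 5 above, against 10.5% and 22.9% of all genes. Bcl2l2, which encodes the survival protein BCL-W, was at 22.6 and 23.8 CPM in WT against 30.3 and 28.8 in PAD4-DN, for a log2 fold change of 0.35 (unadjusted p = 0.0365 by edgeR). The survival genes Bcl2 and Mcl1 were above WT in both PAD4-DN libraries as well, and so was the BH3-only gene Bmf, at 6.07 and 4.01 CPM in WT against 9.56 and 7.59 in PAD4-DN. Bak1, the other membrane-permeabilising effector, was at 54.3 and 54.6 CPM in WT against 40.3 and 47.8 in PAD4-DN. Bcl2, Mcl1 and Bak1 were named after their values were seen.

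The integrated stress response shares targets with p53, and 17 of its 18 listed genes were tested. None passed, 3 had an unadjusted p under 0.05, all lower in PAD4-DN, against 1.42% of all genes, and 7 were below WT in both PAD4-DN libraries with 0 above, against 17.4% and 15.4% of all genes, at a median log2 fold change of −0.20. On TPM 5 were below and 2 above, against 10.5% and 22.9% of all genes, and the median on log2(TPM + 1) was −0.08. The transcription factor Atf4 was at 192 and 175 CPM in WT against 166 and 155 in PAD4-DN. The amino acid transporter Slc7a5 was at 128 and 137 CPM in WT against 95.3 and 95.1 in PAD4-DN, and the serine hydroxymethyltransferase Shmt2 at 93.8 and 115 CPM against 71.0 and 75.2 CPM. Of the p53 genes that this response also induces, Sesn2, Pmaip1, Bbc3 and Tnfrsf10b were below WT in both PAD4-DN libraries on CPM and Gadd45a was above. The part of either pathway in these values was not tested.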

How the data were processed

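The members and gene lists were chosen with earlier results of these data known. Kallisto and GRCm39 come from the submitters' processing notes, and its version, annotation and settings were not known. The authors deposited, per the file headers, estimated counts, TPM, length and effective length for 117486 transcripts per library. The deposited estimated counts are not normalized, and the deposited TPM values sum to about 1000000 per library. Per the labels' protocols, libraries were strand-specific and poly-A selected, from 100 ng RNA with 13 PCR cycles and 75-cycle single-end reads.

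Transcripts were matched without version to GENCODE M21 gene names (116408 matched; the 1078 unmatched held 0.483% to 0.493% of counts and were left out), and estimated counts and TPM were summed per gene. Counts were rounded and fitted over all genes with edgeR 4.0.16 in R 4.3.3 (filterByExpr, TMM, quasi-likelihood test, two-sided, Benjamini-Hochberg at 0.05), without a replicate block; the script was tested on simulated data. SE is the unshrunken log2 coefficient divided by the square root of F. A symbol with 2 gene identifiers (Ddit3) took the one with more counts. Kallisto splits reads between similar sequences by an estimate, so paralogues such as Rps27l are uncertain, and counting limits leave out PCR duplication. The rule for genes given in full was an unadjusted p under 0.05, the most abundant gene of each arm, Trp53, Mdm2 and Cdkn1a, and for other lists the 2 smallest p and the most abundant gene. A gene that this rule names is not reported here. Alternatives used DESeq2 1.42.0, limma 3.58.1, other scalings, filters and units, and each library left out.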

Additional observations from a re-analysis of the deposited data

How the results depend on the processing

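No p53 gene passed under any alternative run, and 23 of the 31 genes kept their direction in all of them. Over all genes, DESeq2 passed 10, edgeR without the low-count filter 10 and DESeq2 on the filtered genes, added after the data were seen, 11, and leaving out 1 library gave 0 to 2, with the 2 coming without WT replicate 2. The median over the 31 genes was −0.12 on log2(TPM + 1) and −0.13 on log2(TPM + 0.1), and −0.31 to −0.20 with 1 library left out. By arm, leaving out 1 library gave −0.34 to 0.0 for p53 and its regulators (−0.34 without PAD4-DN replicate 2), −0.13 to 0.05 for repair (0.05 without PAD4-DN replicate 2) and −0.33 to −0.11 for metabolism (−0.11 without WT replicate 2). On log2(TPM + 1) the apoptosis median was −0.19 and the repair median 0.03. Polk was at 0.12 on log2(TPM + 1), 0.13 on log2(TPM + 0.1) and 0.05 with effective length offsets, Apaf1 at 0.01 on both TPM scales, and Ei24 at −0.02 with limma-voom. With a replicate block, Ei24 was at −0.00068, and 0 genes passed. By edgeR with that block, 8 of the 31 and 309 of all 13718 genes were at an unadjusted p under 0.05. Values with 1 library left out ran from −0.34 to 0.04 for Mdm2, −0.73 to 2.85 for Btg2, −0.45 to 0.10 for Eda2r, −0.22 to 0.09 for Apaf1, −0.36 to 0.36 for Ei24, −0.30 to 0.05 for Xpc and −0.19 to 0.71 for Ddb2. The cause of these changes was not tested. Same-numbered libraries deviated in opposite directions from their group means (r = −0.324 over 13718 genes), and with crossed pairs, added after the data were seen, 0 genes passed. By edgeR with crossed pairs, 9 of the 31 and 412 of all 13718 genes were at an unadjusted p under 0.05. Each fit with 1 library left out assumes that the lone library varies like the others.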
